A study of Caenorhabditis elegans with 22 samples.

Results

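Neuropeptide genes of the flp and nlp families were followed in whole adult Caenorhabditis elegans that lived with or without rotenone, an inhibitor of mitochondrial complex I. Members were all rows of the count table whose gene name starts with flp- or nlp- and a number. Not included were nlp-27, nlp-28, nlp-29, nlp-30, nlp-31 and nlp-34, which are known as epidermal defence peptide genes. This left 68 genes of 45461 rows, 30 of them flp and 38 nlp. The 8 groups were animals on agar plates with 100 nM rotenone and on plates with the solvent DMSO, each taken 1, 5, 10 and 20 days after the last larval stage (L4). There were 3 libraries per group at days 1, 5 and 10 and 2 per group at day 20, so 22 in all. Nothing in the labels ties replicates to separate cultures, so p-values here measure only how far these samples spread, and part of that spread may be technical. All plates of both treatments came from 1 batch of agar. The strain is not given in the sources used here.

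Neuropeptides are cut from larger precursor proteins, packed into dense core vesicles and released to act on receptors, mostly coupled to G proteins. The flp genes encode precursors of peptides that end in the amino acids Arg-Phe-amide, and nlp genes encode the remaining precursors that are not insulin-like. Most are expressed in small sets of neurons, where they adjust movement, feeding, egg laying and sleep, while some act from other tissues. In whole-animal RNA, fewer cells of a type and less RNA per cell cannot be told apart.

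Of the 68 genes, 65 had enough reads to be tested, 29 flp and 36 nlp. The remaining 3 were close to absent. In all 22 libraries together flp-23 had 5 reads, nlp-23 had 78, and nlp-22, a sleep-promoting peptide gene of the larval moult, had 24. On the genome build WBcel235, 23 of the 68 lay on chromosome X. Among tested genes, 32.3% of the neuropeptide genes and 14.4% of all genes were on X. The genes were short, with a median exonic length of 610 bases (range 240 to 1732 for those tested), against 1308 bases for all genes tested. The total count per library ran from 25769159 to 69961601, and neuropeptide genes held 0.0358% to 0.0869% of it.

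A few libraries stood apart. In rotenone day 5 replicate 2, ribosomal RNA genes held 17.6% of the reads, against 0.572% to 2.71% in the other libraries. DMSO day 10 replicate 1 differed from its group by gene length. Against the mean of the other 2 libraries, its log2 level was higher by a median of 0.55 in the shortest 20% of genes and lower in the longest 20%, at a median of -0.54. The median for neuropeptide genes in it was 0.64 above those 2 libraries. In it the 24 neuron markers summed to 671 CPM (counts scaled to the size of each library), against 1260 and 1317 CPM in the other 2. Rotenone day 10 replicate 1 leaned the same way, with a neuropeptide median of 0.29 above its own group. Main results that rest on DMSO day 10 replicate 1 are therefore given with and without it. For the rotenone libraries named here, the numbers of neuropeptide genes passing are given as ranges with 1 library left out. Every marker of neurons, body wall muscle, intestine, epidermis and germline (24, 15, 11, 10 and 14 genes) had reads in all groups.

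Abundance differed widely between the genes. Compared per length over all 22 libraries, nlp-40 was highest at a mean of 139 CPM per kilobase of exon, followed by nlp-36 at 114. Next came nlp-24 at 43.6, nlp-33 at 43.5, flp-14 at 42.1, nlp-39 at 37.3, flp-6 at 34.8 and flp-28 at 32.8. The lower 6 of these means lie between 32.8 and 43.6. The order differed between days, with nlp-40 first and nlp-36 second at days 5, 10 and 20 under both treatments but not at day 1. At day 1 nlp-36 was first, at a mean of 175 CPM per kilobase in rotenone animals and 149 in DMSO animals. There nlp-24 averaged 144 in rotenone animals and 129 in DMSO animals, and nlp-40 averaged 141.7 in rotenone animals and 123 in DMSO animals. The nlp-24 libraries of day 1 overlapped with those of nlp-40, while every nlp-36 library was above every nlp-40 library of its group. The precursor nlp-40 (Y74C9A.2, I:11495-16837, plus strand) is released from the intestine and paces the defecation motor programme. It made up a mean of 12.4% to 21.4% of the summed neuropeptide CPM per rotenone group and 11.9% to 21.4% per DMSO group.

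**Figure D1:**
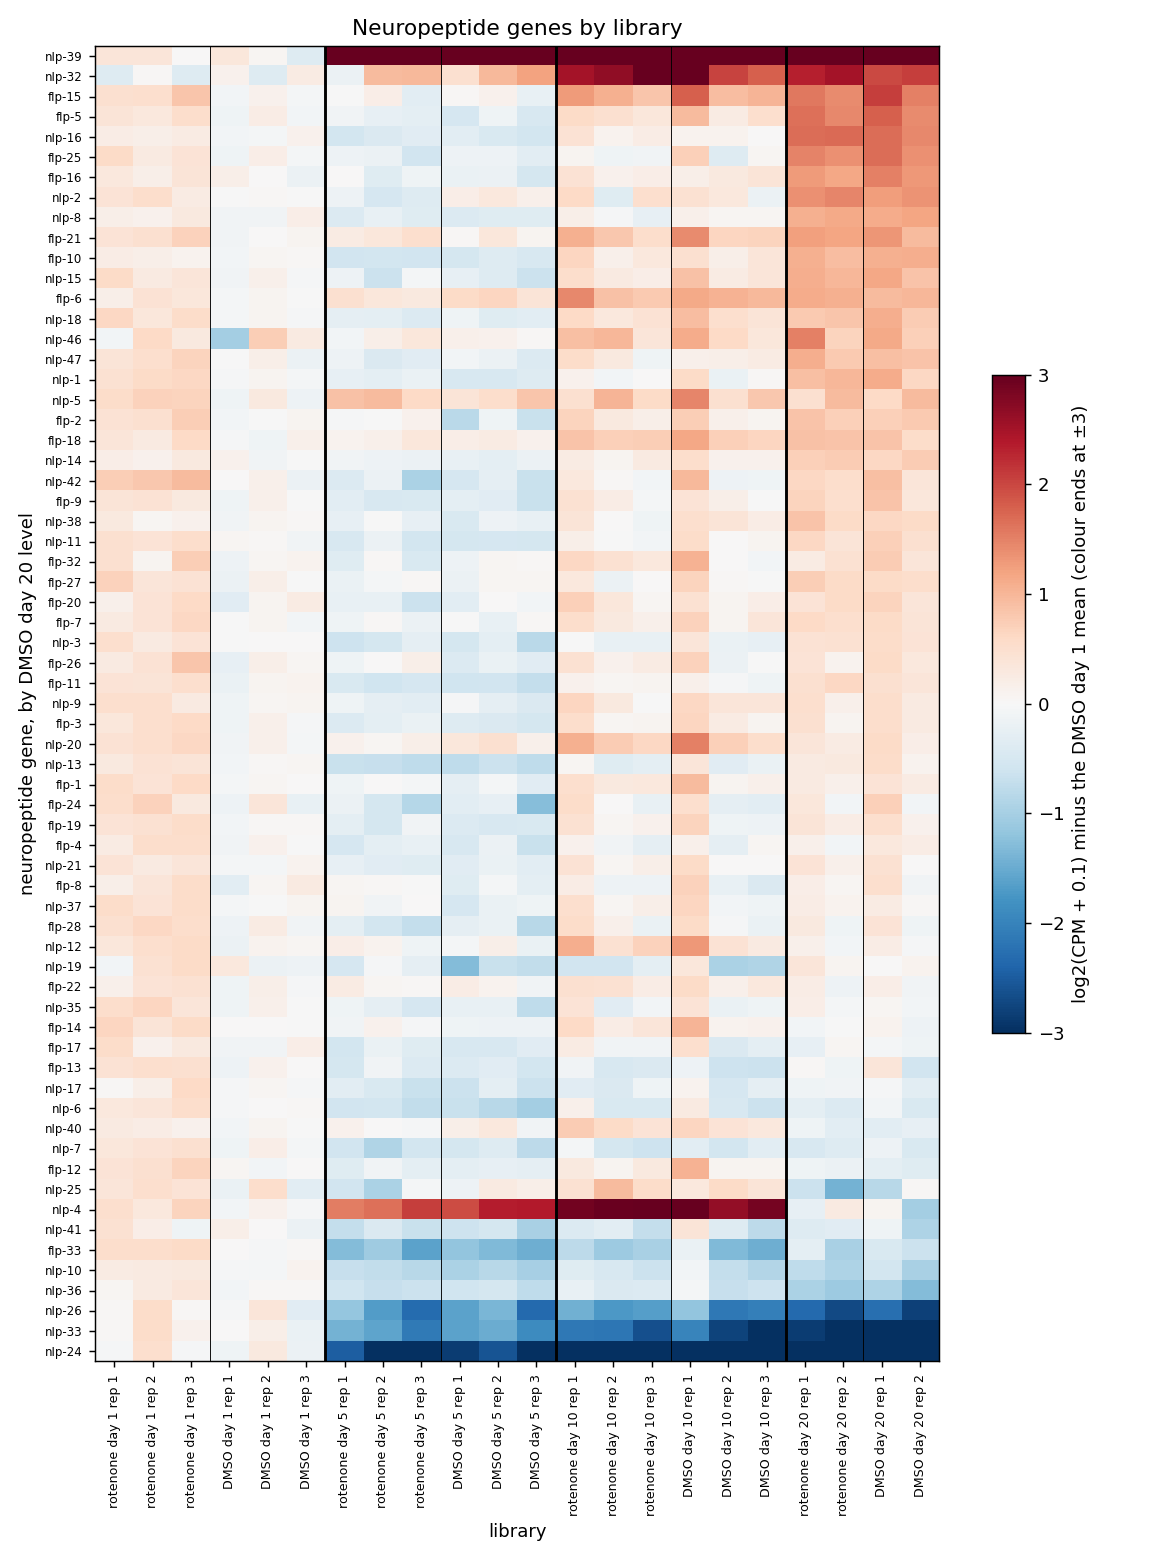
Levels of the 65 tested neuropeptide genes (rows) in each of the 22 libraries (columns, rotenone left of DMSO at each day), as log2(CPM + 0.1) minus the gene's mean in the 3 DMSO day 1 libraries, with red higher and blue lower. Rows are ordered by the DMSO day 20 level. The 3 rotenone day 1 columns are mostly pale red, the 6 day 5 columns mostly pale blue, and nlp-24, nlp-33 and nlp-26 at the bottom darken with age under both treatments.

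The first question was how animals on rotenone differed from DMSO animals of the same age. At day 1, neuropeptide genes were higher as a group in rotenone animals, yet no single gene passed the test. Their summed level was 692, 735 and 722 CPM in the rotenone libraries, against 536, 606 and 557 CPM in the DMSO libraries. The 2 groups did not overlap. The sums of the flp genes alone were 270, 272 and 285 CPM in rotenone animals, against 190, 217 and 203 CPM in DMSO animals. For the nlp genes they were 422, 463 and 437 CPM in rotenone animals and 346, 389 and 354 CPM in DMSO animals. By gene, the log2 fold change was above 0 for 64 of 65 genes, and its median was 0.43 (quartiles 0.32 and 0.51), against 0.04 over all genes tested. It was above 0 for 29 of 29 flp genes, with a median of 0.45, and for 35 of 36 nlp genes, with a median of 0.40. In 46 of the 65, every rotenone library was above every DMSO library, and in 0 the reverse held. Over all genes the shares without overlap were 20.5% higher and 21.9% lower.

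**Figure D2:**
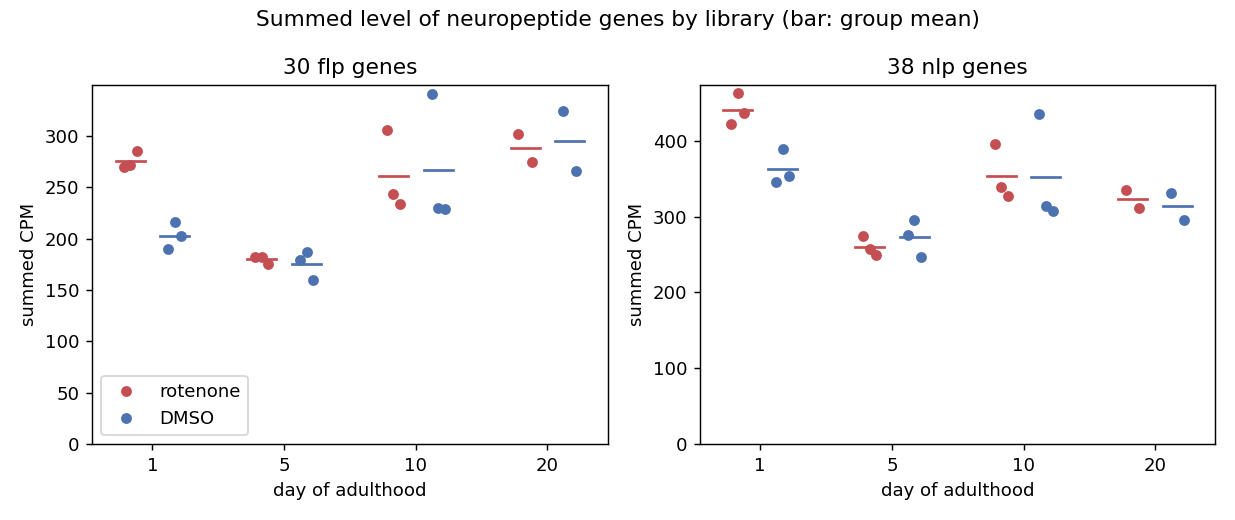
Summed CPM of the 30 flp genes (left) and the 38 nlp genes (right) in each library by day of adulthood, with rotenone in red left of DMSO in blue and bars at group means. At day 1 the rotenone points lie above all DMSO points in both panels, at day 5 they overlap in both, and 1 DMSO day 10 library lies far above the other 2.

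By edgeR's quasi-likelihood test with Benjamini-Hochberg adjustment over 16822 genes, 0 of 65 neuropeptide genes passed at an adjusted p under 0.05 at day 1. Over all genes, 0.375% passed as higher and 0.273% as lower. At an unadjusted p under 0.05 there were 39. The share of all genes at an unadjusted p under 0.05 was not computed, here or below. Such counts therefore cannot be called particular to neuropeptide genes. DESeq2 called 3, all higher (flp-11, nlp-11 and nlp-18), with 0.973% of all genes higher and 1.26% lower. The smallest adjusted p belonged to flp-11 (K02G10.4, X:4677334-4678129, minus strand), the sleep-promoting peptide gene of the RIS neuron. It had 11.7, 11.6 and 12.5 CPM in rotenone animals, against 7.67, 9.37 and 9.54 CPM in DMSO animals. Every rotenone library was higher, and the log2 fold change was 0.43 ± 0.10 (SE, edgeR adjusted p = 0.0518). Next was nlp-18. It had 10.4, 8.51 and 9.82 CPM in rotenone animals and 6.43, 7.13 and 6.56 CPM in DMSO animals, again without overlap (log2 fold change 0.51 ± 0.13, adjusted p = 0.0887).

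The number passing at day 1 differed between fits, and so did the share of all genes passing. In a fit of only the 6 day 1 libraries 44 neuropeptide genes passed, all higher, with 14.3% of all genes higher and 19% lower. With the replicate number as a block 1 passed, as higher (all genes 0.416% higher and 0.285% lower), and with a block within each day 34 passed, all higher (all genes 3.82% and 8.51%). With DMSO day 10 replicate 1 left out of the fit of all groups 25 passed, all higher (all genes 4.8% and 13.6%). With both day 10 libraries of replicate 1 left out, an alternative chosen after seeing the data, 34 passed, all higher (all genes 6.25% and 15.5%). The median log2 fold change was 0.40 in both of these last fits.

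Gene length moved with this difference. Over 16555 genes the log2 fold change fell with exonic length (Spearman correlation across genes -0.54, a description, since genes are not independent), with a median of 0.26 in the shortest 20% and -0.26 in the longest. With a smooth length trend removed from each library, the neuropeptide median was 0.23, against 0.00 for all genes, and 0 neuropeptide genes passed (all genes 0.339% higher and 0.238% lower). With the trend removed and DMSO day 10 replicate 1 left out, also chosen after seeing the data, 3 passed, all higher, at a median of 0.22 (flp-1, flp-12 and nlp-42), with 2.26% of all genes higher and 4.75% lower. The part of length or RNA quality in the remaining difference was not tested.

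**Figure D3:**
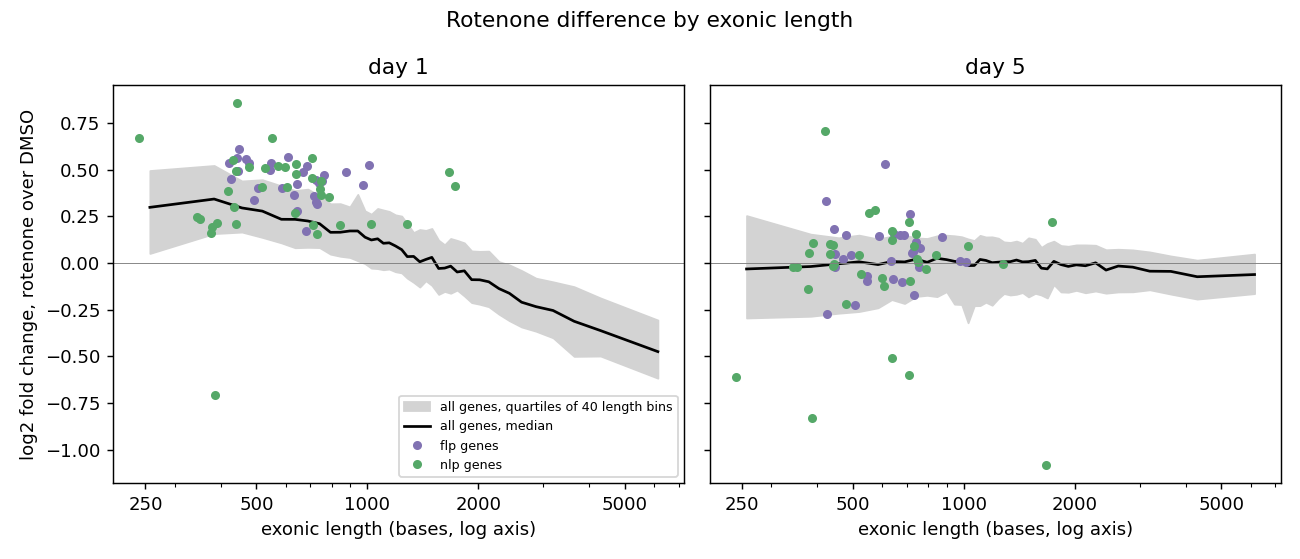
Log2 fold change of rotenone over DMSO against exonic length (log axis) at day 1 (left) and day 5 (right), with the 65 flp and nlp genes as points and all genes as the median (black) and quartiles (grey) of 40 length bins. At day 1 the black line falls from short to long genes and most neuropeptide genes lie above it, while at day 5 it is flat and the points lie on both sides.

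Other peptide genes lay on the same side at day 1, and the genes that process, pack and sense peptides differed from them in their medians. All list medians, sums and counts given here are without the length trend removed. Over all genes the day 1 log2 fold change fell with exonic length (Spearman correlation -0.54 across genes). The part of gene length in the differences between lists was not tested. All 6 peptide genes of other names were above 0, with a median log2 fold change of 0.58. Among them pdf-1, a precursor of pigment-dispersing factor, was 0.52 ± 0.12 (edgeR adjusted p = 0.063) and snet-1 was 0.40 ± 0.13 (edgeR adjusted p = 0.163). The 16 genes of peptide processing had a median of -0.07, with 6 above 0, and the 17 dense core vesicle genes a median of -0.15, with 2 above 0. In the processing list pghm-1, an enzyme that amidates peptides, was 0.39 ± 0.11 (edgeR adjusted p = 0.104). The 100 tested peptide receptor genes had a median of 0.11, with 74 above 0. The 24 neuron markers, mostly synaptic and cytoskeletal genes, had a median of -0.19, and their sum was 762 to 823 CPM in rotenone animals, against 1071 to 1146 CPM in DMSO animals. By edgeR 0 genes of these 5 lists passed at day 1. At an unadjusted p under 0.05 there were 6 peptide genes of other names, 7 processing, 5 vesicle, 8 receptor and 9 neuron genes. They were counted without regard to direction, and no share of all genes was computed at that threshold. DESeq2 called 1, 1, 0, 0 and 0 genes of these lists, in the same order. With DMSO day 10 replicate 1 left out, 3 processing genes were higher and 5 lower, and 9 neuron markers were lower. Over all genes 4.8% were higher and 13.6% lower in that fit. Markers of other tissues had medians of -0.19 (muscle), -0.17 (intestine), 0.19 (epidermis), -0.22 (germline), 0.26 (sperm) and -0.07 (embryo), and their part in the neuropeptide difference was not tested.

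Genes with known roles in egg laying, sleep and locomotion were also looked at by role. The log2 fold change was above 0 in 6 of 6 tested egg-laying genes (median 0.41), 6 of 6 sleep genes (0.45) and 6 of 6 locomotion genes (0.51). For flp-1, a gene of locomotion made in the AVK neurons, it was 0.52 ± 0.16, with 18.1, 16.4 and 18.5 CPM in rotenone animals and 11.8, 12.7 and 12.4 CPM in DMSO animals. For flp-13, which promotes stress-induced sleep from the ALA neuron, it was 0.47 ± 0.18, and for flp-21, a ligand of the receptor NPR-1, 0.56 ± 0.20. The values were 0.42 ± 0.13 for flp-18, 0.41 ± 0.15 for nlp-3, 0.41 ± 0.15 for nlp-7, 0.20 ± 0.11 for nlp-8 and 0.49 ± 0.23 for nlp-12. None of these 8 passed, with edgeR adjusted p-values from 0.151 (flp-1) to 0.31 (nlp-8). The gene nlp-32 was the 1 below 0, at -0.71, and rested on 2 reads in the 3 rotenone libraries and 4 in the 3 DMSO libraries.

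At days 5, 10 and 20 the summed levels of rotenone and DMSO animals overlapped and 0 neuropeptide genes passed. At day 5 the sums were 457, 439 and 426 CPM in rotenone animals, against 455, 483 and 407 CPM in DMSO animals, and the median log2 fold change was 0.04. By edgeR 0 of 65 passed (over all genes, 0.107% passed higher and 0.773% lower), with 3 at an unadjusted p under 0.05 and 0 by DESeq2. At day 10 the sums were 701, 584 and 560 CPM in rotenone animals and 776, 543 and 536 CPM in DMSO animals, and the median was 0.01. By edgeR 0 passed at day 10 (0.452% higher and 0.91% lower over all genes), with 0 at an unadjusted p under 0.05 and 0 by DESeq2. With DMSO day 10 replicate 1 left out the day 10 median was 0.22 and 3 genes passed, all higher (flp-14, flp-19 and nlp-36), with 6.31% of all genes higher and 7.94% lower. With both day 10 libraries of replicate 1 left out the median was 0.14 and 0 passed (all genes 2.27% higher and 3.34% lower). Without rotenone day 10 replicate 1 alone the median was -0.07. At day 20 the sums were 637 and 586 CPM in rotenone animals, against 655 and 562 CPM in DMSO animals, and the median was -0.03. By edgeR 0 passed at day 20 (0.0594% higher and 0.00594% lower over all genes), with 0 at an unadjusted p under 0.05 and 0 by DESeq2.

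**Figure D4:**
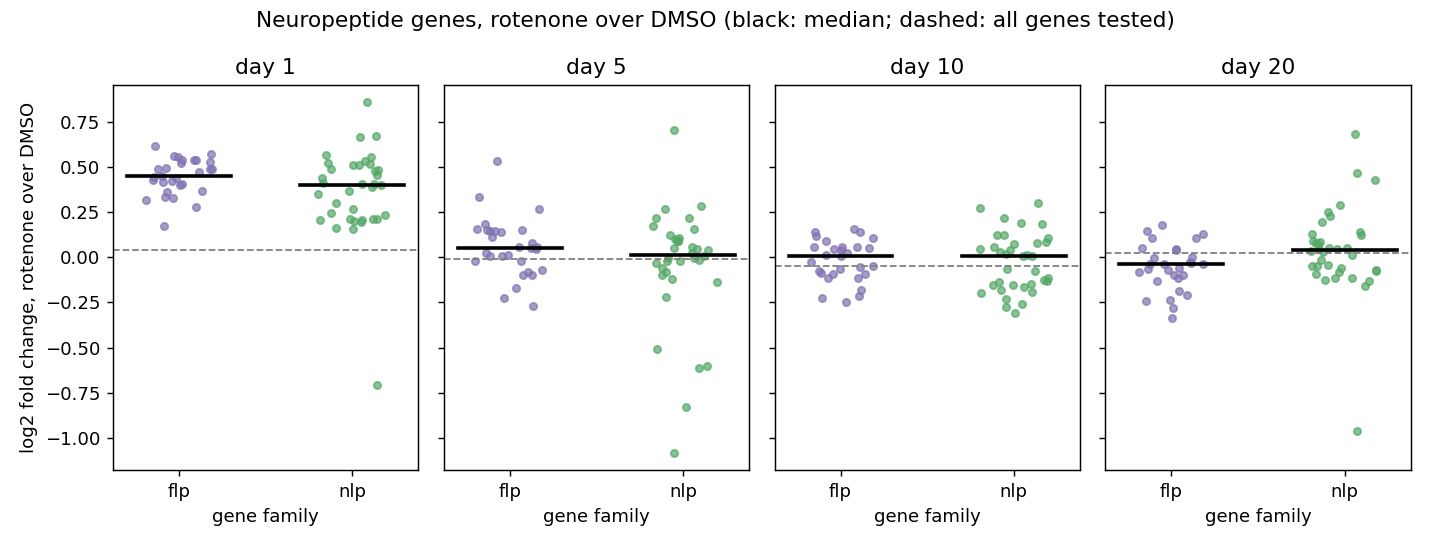
Log2 fold change of rotenone over DMSO for the 29 flp and 36 nlp genes at each day (points), with the median of each family in black and the median of all genes tested dashed. At day 1 the family medians are 0.45 (flp) and 0.40 (nlp), and at the other 3 days the points scatter around the dashed line.

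The gene nlp-39 stood out at day 5. It had 10.8, 10.9 and 10.3 CPM in rotenone animals, against 15.3, 16.3 and 17.3 CPM in DMSO animals. The groups did not overlap and the log2 fold change was -0.61 ± 0.17, but it did not pass (edgeR adjusted p = 0.127). It passed with DMSO day 10 replicate 1 left out of the fit. At days 10 and 20 the groups overlapped.

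Whether the rotenone difference changed with age was tested as the difference between the effect at a later day and that at day 1. The median log2 change of the effect was -0.36 at day 5, -0.44 at day 10 and -0.46 at day 20, against -0.04, -0.07 and -0.01 over all genes. These 3 comparisons share the day 1 libraries. By edgeR, 0 neuropeptide genes passed in each of the 3. At an unadjusted p under 0.05 there were 14 at day 5, 26 at day 10 and 12 at day 20. No share of all genes was computed at that threshold, so these counts have no background to compare with. DESeq2 called 0 in each. Over all genes 0.0654% passed as higher and 0.422% as lower at day 5, 0.161% and 0.196% at day 10, and 0.0297% and 0.0119% at day 20. Once DMSO day 10 replicate 1 was left out, 2 neuropeptide genes (flp-12 and nlp-20) passed at day 5 and 6 at day 20, all lower, and 0 at day 10. In that fit 3.1% of all genes were higher and 1.58% lower at day 5, and 5.9% and 1.23% at day 20. With the length trend removed the medians were -0.13, -0.16 and -0.19, and 0 passed.

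The second question was how the genes changed with age in DMSO animals. Neuropeptide genes were mostly lower at day 5 than at day 1, higher again at day 10, and in part highest at day 20. The highest DMSO group mean was at day 1 for 12 of the 65 genes, at day 5 for 0, at day 10 for 17 and at day 20 for 36. Over all genes tested the shares were 31.6%, 22.3%, 15.3% and 30.8%. Without DMSO day 10 replicate 1 the counts were 13, 1 (nlp-39), 9 and 42, and the shares of all genes 32.6%, 22.8%, 13.3% and 31.3%. The other genes whose day of the highest mean moved from day 10 were flp-1, flp-18, nlp-5, nlp-9, nlp-32 and nlp-37, to day 20, and nlp-35, to day 1. For flp genes alone, 20 of 29 were highest at day 20 (22 without that library), and for nlp genes 16 of 36 (20 without it). The DMSO day 20 means rest on 2 libraries, which also differed by gene length. Replicate 1 was above replicate 2 by a median log2 level of 0.17 in the shortest 20% of genes and 0.27 in neuropeptide genes. In the longest 20% the median was -0.15. How far the day 20 counts rest on replicate 1 was not tested. The range was moderate for most: the highest DMSO mean was less than 2 times the lowest in 32 of 65 genes, and over 4 times in 7.

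At day 5 against day 1, 3 genes were higher and 25 lower by edgeR, with a median log2 fold change of -0.34 (all genes -0.05). Over all genes 24.6% passed as higher and 31.3% as lower. Without DMSO day 10 replicate 1 in the fit, 6 were higher and 37 lower (all genes 29% and 35.1%). The genes that rose were nlp-39, nlp-4 and flp-6, and the largest falls were those of nlp-24, nlp-26, nlp-33, flp-33 and nlp-19. The last of these, nlp-19, fell by 1.09 ± 0.36 on the log2 scale (edgeR adjusted p = 0.015). This call did not survive leaving out replicate 1 of DMSO day 1 or of DMSO day 5 (adjusted p = 0.074 and 0.073). With the length trend removed, 9 genes were higher and 22 lower, at a median of -0.17 (all genes 33.2% and 29.4%). Tissue markers moved in the same comparison. Of 24 neuron markers 2 were higher and 10 lower, at a median of -0.33, although their summed level was 1100 to 1286 CPM at day 5, against 1071 to 1146 CPM at day 1. All 15 body wall muscle markers were lower, at a median of -2.0, as were 7 of 11 intestine markers (median -1.12), 8 of 10 epidermis markers (-1.92) and 8 of 10 sperm markers (-4.15), while 7 of 14 germline markers were higher (0.38). Their part in the fall of the neuropeptide genes at day 5 was not tested.

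At day 10 against day 5, 35 genes were higher and 2 lower, with a median of 0.51 (all genes 0.04; 13.7% passed as higher and 12.1% as lower). Leaving out DMSO day 10 replicate 1 gave 25 higher and 2 lower, at a median of 0.30 (all genes 12.6% and 14.2%), and with only the groups compared in the fit 14 and 1 (all genes 6.52% and 6.83%). Of the neuron markers 3 were higher and 0 lower in the fit of all libraries, at a median of -0.05, and 12 of 15 muscle markers were lower. At day 10 against day 1, 23 were higher and 8 lower, with a median of 0.23 (all genes 0.01; 26.7% and 29.6%). That direction rested on DMSO day 10 replicate 1: without it 12 were higher and 14 lower, at a median of 0.04 (all genes 27.9% and 33%). With the length trend removed and this library left out, 23 were higher and 10 lower, at a median of 0.16 (all genes 32.8% and 30.4%). In the fit of all libraries nlp-20 rose by 0.98 ± 0.19 at day 10 against day 1 (edgeR adjusted p = 0.0002), or by 0.60 without this library. At day 10 against day 5, nlp-15 rose by 0.94 ± 0.17 and nlp-18 by 0.89 ± 0.13 (adjusted p = 0.0004 and 4.6e-05). In DMSO day 10 replicate 1 they had 10.3 and 12.9 CPM. The other DMSO day 10 libraries had 6.66 and 7.22 CPM for nlp-15, and 9.5 and 8.74 CPM for nlp-18.

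At day 20 against day 1, 30 genes were higher and 5 lower, with a median of 0.42 (all genes -0.01; 27.8% and 30.9%). All 14 flp genes that passed were higher, and of the nlp genes 16 were higher and 5 lower. At day 20 against day 10, 16 were higher and 10 lower, with a median of 0.19 (all genes 0.02; 23.3% and 22.3%). The count against day 10 was 30 higher and 7 lower without DMSO day 10 replicate 1 (all genes 26.9% and 21.7%), and 11 higher and 6 lower without DMSO day 20 replicate 1 (all genes 19% and 13.9%).

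Precursors of YGGW-type peptides were among the genes with the steepest falls with age. The gene nlp-24 (F35B12.7, V:11616376-11616828, plus strand) shares 24 exon bases with glb-15 on the other strand, which these unstranded reads cannot separate. In rotenone animals it had 47.4, 68.7 and 47.2 CPM at day 1, 8.61, 4.84 and 3.45 at day 5, 1.67, 1.86 and 1.17 at day 10, and 1.93 and 1.78 at day 20. Its level in DMSO animals was 44.2, 59.3 and 42.7 CPM at day 1, 6.64, 7.9 and 4.5 at day 5, 2.34, 1.16 and 1.31 at day 10, and 1.66 and 0.999 at day 20. No library of a later day overlapped day 1 under either treatment. In DMSO animals the log2 fold change against day 1 was -2.93 ± 0.30 at day 5, -4.99 ± 0.34 at day 10 and -5.13 ± 0.41 at day 20 (edgeR adjusted p = 8.2e-08, 1.9e-10 and 1.6e-09).

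The gene nlp-33 (T19C4.7, V:11147346-11147737, plus strand), an antimicrobial peptide gene known from the epidermis, followed the same course. It had 33.8, 48.5 and 36 CPM in rotenone animals at day 1, 12.3, 11.1 and 7.48 at day 5, 7.38, 7.3 and 5.27 at day 10, and 4.55 and 2.9 at day 20. In DMSO animals the values were 33.4, 37.4 and 29 CPM at day 1, 10.8, 11.7 and 8.92 at day 5, 8.27, 4.78 and 3.76 at day 10, and 2.85 and 1.72 at day 20. Against DMSO day 1 the log2 fold change was -1.67 ± 0.25 at day 5, -2.60 ± 0.26 at day 10 and -3.82 ± 0.34 at day 20 (edgeR adjusted p = 1.5e-05, 7.4e-08 and 7.9e-09). Between later ages it fell by 0.93 ± 0.26 at day 10 against day 5 (adjusted p = 0.012) and by 1.22 ± 0.32 at day 20 against day 10 (adjusted p = 0.0045). The first of these missed the threshold without DMSO day 10 replicate 3 (adjusted p = 0.063) and the second without DMSO day 20 replicate 2 (adjusted p = 0.091). Without DMSO day 10 replicate 1 the second was -0.80.

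Of the other YGGW-type genes, nlp-26 (Y43F8C.2, V:19613461-19614534, plus strand) was lower than at day 1 by a log2 fold change of -1.77 ± 0.29 at day 5 and -2.60 ± 0.36 at day 20 (edgeR adjusted p = 4e-05 and 4.2e-06), while its neighbour nlp-25, 5041 bases away, stayed below 0.42 CPM in every library and did not pass against day 1. The gene nlp-32 went the other way and passed as higher at days 10 and 20, on few reads. It had 86 reads in the 3 DMSO day 10 libraries, against 4 in the 3 DMSO day 1 libraries, a ratio of 21.7 after scaling (95% exact interval 8.17 to 81.4, counting error only). Of the 86 reads, 44 were in DMSO day 10 replicate 1. Without that library the ratio was 13.6 (4.94 to 52.3), and nlp-32 still passed at day 10 against day 1 (edgeR adjusted p = 5.8e-05). Epidermal collagen markers fell with these genes: their summed level in DMSO animals was 4819 to 5220 CPM at day 1, 634 to 652 at day 5, 175 to 184 at day 10 and 90.2 to 95.4 at day 20, and 10 of 10 passed as lower at days 10 and 20. The part of this in the fall of nlp-24, nlp-33 and nlp-26 was not tested.

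**Figure D5:**
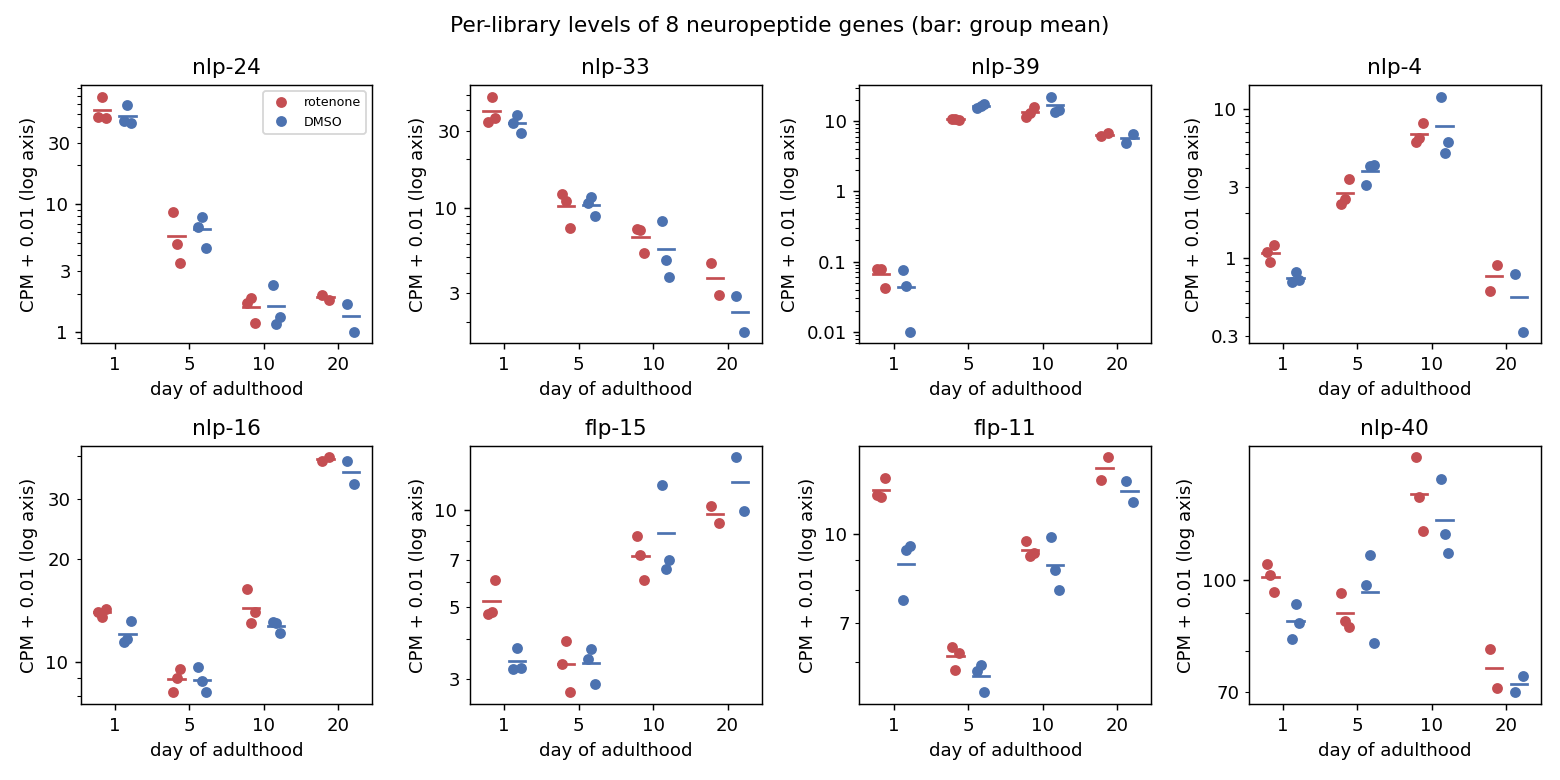
CPM + 0.01 (log axes, each with its own range) of 8 neuropeptide genes in each library by day of adulthood, with rotenone in red left of DMSO in blue and bars at group means. The genes nlp-24 and nlp-33 fall with age, nlp-39 and nlp-4 are highest at days 5 and 10 or at day 10, nlp-16 and flp-15 are highest at day 20 in DMSO animals, nlp-40 is highest at day 10, and in flp-11 the day 1 rotenone points lie above the DMSO points.

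Another pair of nlp genes rose after day 1 and was lower again at day 20. The gene nlp-39 (C54C8.9, I:12461656-12461895, plus strand) was nearly absent at day 1. It had 0.0696, 0.0689 and 0.032 CPM in rotenone animals and 0.0656, 0.0355 and 0 CPM in DMSO animals of that age. DMSO animals reached 15.3, 16.3 and 17.3 CPM at day 5, 22.4, 13.7 and 14.6 at day 10, and 4.82 and 6.55 at day 20. The 3 DMSO day 5 libraries held 1886 reads, against 5 in the 3 DMSO day 1 libraries, a ratio of 447 after scaling (95% exact interval 191 to 1378, counting error only). In rotenone animals the same ratio was 181 (87.4 to 450), from 1226 reads at day 5 and 7 at day 1. At day 20 against day 10 in DMSO animals nlp-39 fell by 1.58 ± 0.20 on the log2 scale (edgeR adjusted p = 3.9e-06).

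The gene nlp-4 (F59C6.6, I:10517321-10518055, minus strand) rose later and fell further. In rotenone animals it had 1.08, 0.931 and 1.22 CPM at day 1, 2.29, 2.48 and 3.37 at day 5, 6.01, 6.32 and 8.08 at day 10, and 0.592 and 0.891 at day 20. DMSO animals had 0.678, 0.798 and 0.703 CPM at day 1, 3.08, 4.11 and 4.19 at day 5, 12.1, 5.03 and 5.96 at day 10, and 0.772 and 0.31 at day 20. Against DMSO day 1 the log2 fold change was 2.37 ± 0.32 at day 5 and 3.36 ± 0.31 at day 10 (edgeR adjusted p = 4e-06 and 2e-08), and day 20 against day 10 gave -3.65 ± 0.38 (adjusted p = 2.3e-07). Day 10 against day 5 was 0.99 ± 0.26 (adjusted p = 0.0085), and 0.53 without DMSO day 10 replicate 1. With only the groups compared in the fit, nlp-4 did not pass there (edgeR adjusted p = 0.11).

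By DMSO group mean, most of the flp genes and several nlp genes were highest at day 20. The gene nlp-16 (T13A10.5, IV:6255049-6259832, minus strand) had 14.1, 13.6 and 14.3 CPM in rotenone animals at day 1, and 38.7 and 39.6 CPM at day 20. In DMSO animals it had 11.5, 11.7 and 13.2 CPM at day 1, 9.67, 8.84 and 8.19 at day 5, 13.1, 13 and 12.1 at day 10, and 38.8 and 33.2 at day 20. Day 20 lay far above the other ages under both treatments, and in DMSO animals the log2 fold change was 1.57 ± 0.11 against day 1 and 1.50 ± 0.11 against day 10 (edgeR adjusted p = 1.8e-10 and 1.3e-09).

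The gene flp-15 (ZK525.1, III:13663400-13667839, minus strand) had 4.77, 4.81 and 6.08 CPM in rotenone animals at day 1, and 10.3 and 9.14 CPM at day 20. In DMSO animals it had 3.21, 3.72 and 3.24 CPM at day 1, 3.45, 3.71 and 2.89 at day 5, 11.9, 6.55 and 6.99 at day 10, and 14.5 and 9.89 at day 20. It had already risen at day 10, by a log2 fold change of 1.31 ± 0.21 against day 5 (adjusted p = 9.1e-05), and was 1.85 ± 0.22 above day 1 at day 20 (adjusted p = 6.2e-07). The other 2 flp genes with the largest rises at day 20 against day 1 were flp-5 (1.62 ± 0.17) and flp-25 (1.58 ± 0.22), with edgeR adjusted p-values of 8.9e-08 and 3.2e-06. Against day 10, flp-25 (1.45 ± 0.22), nlp-2 (1.17 ± 0.23), flp-16 (1.15 ± 0.14) and nlp-8 (1.06 ± 0.12) rose most after nlp-16. The gene nlp-8, which promotes behavioural quiescence, had 12.9 and 13.5 CPM in rotenone animals and 13.4 and 14.1 CPM in DMSO animals at day 20.

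The gene flp-6 (V:9471975-9473792, plus strand) rose from day 5 on. Its DMSO libraries had 14.9, 16.6 and 15.5 CPM at day 1, 23.4, 24.5 and 20.6 at day 5, 34.7, 32.6 and 30.7 at day 10, and 30.5 and 31.3 at day 20. It passed as higher than day 1 at day 5 (0.54 ± 0.13), at day 10 (1.06 ± 0.13) and at day 20 (0.98), and day 20 did not differ from day 10 by the test (-0.08).

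Among the abundant genes, nlp-40 was highest at day 10 and lowest at day 20. Rotenone animals averaged 101 ± 4.58 CPM at day 1, 90.0 ± 5.30 at day 5, 132 ± 15.4 at day 10 (SD, n = 3 each) and 75.7 ± 6.76 at day 20 (n = 2). DMSO animals averaged 87.7 ± 4.93 CPM at day 1, 96.2 ± 13.4 at day 5, 121 ± 15.2 at day 10 (SD, n = 3 each) and 71.8 ± 2.58 at day 20 (n = 2). Day 20 against day 10 in DMSO animals was -0.75 ± 0.13 (edgeR adjusted p = 7.9e-05) and day 20 against day 1 was -0.29 ± 0.12, which did not pass (adjusted p = 0.053). The gene nlp-36 was highest at day 1 and lowest at day 20. Rotenone animals averaged 61.6 ± 6.86 CPM at day 1, 33.3 ± 1.09 at day 5, 41.1 ± 3.49 at day 10 (SD, n = 3 each) and 25.9 ± 1.95 at day 20 (n = 2). DMSO animals had 49.5, 54 and 53.6 CPM at day 1, 34.3, 36.5 and 30.8 at day 5, 50.4, 32.4 and 33.9 at day 10, and 27.3 and 21.3 at day 20. It was lower than at day 1 by a log2 fold change of -0.63 ± 0.14 at day 5 (edgeR adjusted p = 0.00078) and -1.10 ± 0.16 at day 20 (adjusted p = 7.5e-06). Day 10 against day 5 was 0.20 ± 0.14, which did not pass (adjusted p = 0.33), and was -0.04 without DMSO day 10 replicate 1. It shares 11 exon bases with dars-1 on the other strand. The genes nlp-10 and flp-33 also fell early: against day 1, nlp-10 was -0.93 at day 5, and -0.73 ± 0.18 at day 20 with an adjusted p of 0.0016. For flp-33 the change was -1.39 ± 0.26 at day 5 (adjusted p = 0.00013) and -0.54 at day 20, which did not pass. At day 20 against day 10, flp-12 fell by 0.80 ± 0.21 (adjusted p = 0.0038), or by 0.37 with DMSO day 10 replicate 1 left out. With only the groups compared in the fit, flp-12 did not pass there (edgeR adjusted p = 0.20).

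The genes with known roles in behaviour were counted in the same way. Of 6 egg-laying genes, 4 fell at day 5 against day 1, where 31.3% of all genes passed as lower, and 4 rose at day 10 against day 5, where 13.7% passed as higher. Of 6 locomotion genes, 2 fell at day 5 and 6 rose at day 10 against day 5 (median 0.71), among them flp-18, a gene of body posture and escape, at 0.67 ± 0.13 (edgeR adjusted p = 0.00061), and flp-21 at 0.78 ± 0.20 (adjusted p = 0.0059). When DMSO day 10 replicate 1 was left out, flp-1 was 0.32 in place of 0.66 and flp-21 0.49, and nlp-12, a cholecystokinin-like gene of the DVA neuron, was 0.37 in place of 0.75 and did not pass (adjusted p = 0.13), as was also so without DMSO day 5 replicate 1 or 3 (adjusted p = 0.06 and 0.074). For flp-18, DMSO day 10 replicate 1 had 20.5 CPM, against 15 and 14.3 CPM in the other DMSO day 10 libraries. Of the 6 tested sleep genes, 2 fell at day 5 against day 1, close to the share of all genes, and 4 rose at day 10 against day 5. With DMSO day 10 replicate 1 left out, 6 egg-laying, 4 sleep and 3 locomotion genes fell at day 5, and 3, 3 and 5 rose at day 10 against day 5, with 35.1% of all genes lower at day 5 and 12.6% higher at day 10 against day 5. In DMSO animals flp-11 was lower by 0.64 ± 0.10 at day 5 than at day 1 (adjusted p = 2.5e-05), was higher by 0.63 ± 0.10 at day 10 than at day 5 (9.1e-05), and at day 20 was 0.42 ± 0.11 above day 1 (0.0025). The egg-laying genes nlp-3 and nlp-7 fell at day 5 by 0.53 ± 0.15 and 0.58 ± 0.16 (adjusted p = 0.0056 and 0.0047). For flp-13 the day 5 difference was -0.44 ± 0.19 (adjusted p = 0.053).

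Some of the genes lie next to each other. On chromosome X, flp-28, flp-3 and flp-2 follow each other on the minus strand with 3979 and 1465 bases between them. At day 5 against day 1 in DMSO animals flp-2 was -0.51 and flp-3 -0.46, both passing, and flp-28 was -0.42 (adjusted p = 0.11). At day 10 against day 5 flp-2 was 0.85 and flp-3 0.79, both passing, and flp-28 was 0.55 (adjusted p = 0.074). These rises lean in part on DMSO day 10 replicate 1, where flp-2 had 4.32, flp-3 12.9 and flp-28 25.6 CPM. The other DMSO day 10 libraries had 2.81 and 2.7 (flp-2), 9.66 and 8.59 (flp-3), and 16.6 and 15.1 CPM (flp-28). For each gene these still lay above every DMSO day 5 library. Also on X, nlp-22, nlp-23 and nlp-2 lie within 301 and 987 bases of each other, and of these only nlp-2 had enough reads to be tested.

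The genes that make and read neuropeptides were counted beside the same shares of all genes. Of 16 processing genes, 2 were higher and 10 lower at day 5 against day 1 (all genes 24.6% and 31.3%), and 8 were higher and 4 lower at day 20 against day 1 (all genes 27.8% and 30.9%). The largest changes by p at day 20 were falls: aex-5, a prohormone convertase of the defecation programme, fell by 1.87 ± 0.13 (edgeR adjusted p = 1.2e-10) and nep-17, a neprilysin-type peptidase, by 3.49 ± 0.33 (adjusted p = 2.6e-08). Of 17 dense core vesicle genes, 11 were higher and 1 lower at day 20 against day 1, led by ric-19 (1.36 ± 0.12) and tbc-8 (1.25 ± 0.13), which act in vesicle maturation. Of 6 peptide genes of other names 3 rose and 0 fell, among them trh-1, a precursor related to thyrotropin-releasing hormone, at 2.06 ± 0.27 (adjusted p = 1.8e-06).

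Of 100 receptor genes, 37 were higher and 10 lower at day 20 against day 1 (all genes 27.8% and 30.9%), and 41 higher and 2 lower at day 20 against day 10 (all genes 23.3% and 22.3%). The receptor aexr-2 rose by a log2 fold change of 4.00 ± 0.32 against day 1 (edgeR adjusted p = 1.9e-09) and dmsr-2, a receptor of the myosuppressin type, by 1.47 ± 0.14 (adjusted p = 2.5e-08). Neuron markers moved with these lists: at day 20 against day 1, 11 of 24 were higher and 2 lower (median 0.33), and at day 20 against day 10, 16 were higher and 1 lower (median 0.63). Among them at day 20 against day 1 were tbb-4, a tubulin of ciliated neurons (1.77 ± 0.16), and unc-64, a syntaxin (1.03 ± 0.10), with edgeR adjusted p-values of 1.4e-08 and 1.9e-08. Meanwhile 15 of 15 body wall muscle markers were lower at day 20 than at day 1, at a median of -3.29. The part of such shifts in tissue makeup in the rise of the neuropeptide genes was not tested.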

How the data were processed

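Whole-animal RNA of 22 libraries was measured by sequencing. The authors deposited whole-number read counts per gene without normalization. Per the submitters' processing notes, TopHat 1.4.1, HTSeq and the build WBcel235 were used, with no role or order given. QIAzol was used to extract RNA and a TruSeq RNA kit, which does not mark the strand, to make libraries, per the labels' protocols. The deposited RPKM table was not used.

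Counts were tested with edgeR 4.0.16 in R 4.3.3 (filterByExpr, TMM scaling, quasi-likelihood test, 1 fit of 8 groups), with Benjamini-Hochberg adjustment over 16822 tested genes and a threshold of 0.05. Another 4 rows without a gene name were left out. CPM are counts scaled by the TMM library size. Standard errors come from the F statistic. Precision is limited by 2 to 3 libraries per group and by counting error for genes of few reads. On counts simulated for rotenone against DMSO at day 1 (16617 genes), the test recovered 91 of 100 genes changed 2-fold and 99 of 100 changed 4-fold, with 7 false calls. The simulation gave all genes the same spread, without a length trend in the rotenone difference or a library that stood apart. It held no change below 2-fold, so it does not show how well differences near the day 1 median of 0.43 (log2) are found. Alternatives were DESeq2 1.42.0, other scaling, no filter, a replicate block, a length trend removed (lowess span 0.3), fewer groups and libraries left out.

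Coordinates, exonic lengths and current names come from the Ensembl annotation of WBcel235, which held all 68 genes. Of these, 4 have a different name there, among them nlp-10, which differs only in spelling (npl-10). A further limit is that 13 share 5 to 88 exon bases with a gene on the other strand. Sequences of the genes were not analysed here. Genes are named by these rules: in each rotenone comparison those that passed; in each comparison of ages up to 5 per direction with the largest fold among those that passed with 20 or more counts on average and groups that did not overlap; up to 3 per direction in each test of a changed effect; the 8 highest per kilobase; 13 genes with a known role; and of each list of other genes the 2 with the smallest p. Genes outside these rules were named after their values were seen. The members, lists and tests were chosen with earlier results of these data known.

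Same-numbered rotenone and DMSO libraries deviated together at day 10 (correlations 0.43, 0.22 and 0.16 across genes). Differently numbered libraries of replicates 2 and 3 did so as well (0.24 and 0.17). Whether the numbers pair the samples therefore cannot be told from these correlations. At the other days not every same-numbered pair exceeded 0.1. At day 1 the same-numbered pairs had 0.04, 0.11 and 0.05, and the differently numbered pairs ran from -0.09 to 0.02. At day 5 the same-numbered pairs had 0.06, 0.03 and 0.16, and the differently numbered pairs ran from -0.18 to 0.14. With the replicate block 0 neuropeptide genes passed at day 10, as without it.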

Additional observations from a re-analysis of the deposited data

How the results depend on the processing

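The counts of neuropeptide genes passing were recomputed under 12 alternatives (3 chosen after seeing the data: both day 10 libraries of replicate 1 left out, and the length trend removed with either DMSO day 10 replicate 1 left out or a block within each day) and with each of the 22 libraries left out, and 0 of the named gene results reversed direction. The balance of higher and lower calls turned in 1 case: DMSO day 10 against day 1 had 23 higher and 8 lower, but 12 higher and 14 lower without DMSO day 10 replicate 1. The median over the genes changed sign in 12 cases, all for rotenone against DMSO at days 5, 10 and 20, and lay between -0.13 and 0.12 in them. For rotenone against DMSO at day 1, against 0 passing, 21 passed with no filter (all genes 1.88% higher and 4.44% lower), 1 with a replicate block, 34 with a replicate block within each day, 44 with only the groups compared, 3 with DESeq2, 3 with the length trend removed and DMSO day 10 replicate 1 left out, 34 with both day 10 libraries of replicate 1 left out, and 3 with the length trend removed and a block within each day (all genes 2.1% and 3.41%). At day 5, 1 passed (nlp-39, lower) with no filter, with only the groups compared, with the length trend removed and a replicate block (additive or within each day), with the trend removed and DMSO day 10 replicate 1 left out, and with both day 10 libraries left out. For the change of the effect at day 5, 2, 6 and 4 passed with no filter, only the groups compared and both day 10 libraries left out. At day 10 it was 3 with no filter and 1 with the block within each day. At day 20 it was 2 with no filter, 8 with only the groups compared, 9 with both day 10 libraries left out and 1 with the length trend removed and the block within each day. For DMSO ages, day 5 against day 1 gave 44 (28 before) with only the groups compared and 44 with both day 10 libraries left out. Day 10 against day 1 gave 18 (31 before) and day 10 against day 5 gave 15 (37 before) with only the groups compared. For day 10 against day 5 the shares of all genes were then 6.52% higher and 6.83% lower, against 13.7% and 12.1% before. Day 20 against day 10 gave 11 (26 before) with only the groups compared, 40 with the length trend removed and the block, and 42 with both day 10 libraries left out. The share of all genes passing also differed between fits. A changed count here or below therefore need not be particular to neuropeptide genes. The cause was not tested.

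With 1 library left out, the count ran from 0 to 25 for rotenone at day 1, 0 to 1 at day 5, 0 to 3 at day 10 and 0 to 0 at day 20. It ran from 0 to 2, 0 to 0 and 0 to 6 for the change of the effect at days 5, 10 and 20. For DMSO ages it ran from 20 to 43 (day 5 against 1), 23 to 31 (10 against 1), 29 to 46 (20 against 1), 27 to 42 (10 against 5) and 17 to 37 (20 against 10). The count of 25 at day 1 was without DMSO day 10 replicate 1, and without DMSO day 10 replicate 3 it was 1. Of 72 named gene results, 0 lost their call with the replicate block, 1 with DESeq2 and 15 with only the groups compared. Another 3 fits lost 3 (length trend removed), 5 (trend removed, DMSO day 10 replicate 1 left out) and 6 (both day 10 libraries left out). The 15 were all in comparisons with DMSO day 10. Among them were flp-21 and nlp-33 at day 10 against day 5 (edgeR adjusted p = 0.098 and 0.092). The block moved no other count by over 1.5 times beyond those given, and the samples may share only a number. For genes of few reads, such as nlp-32 and the untested nlp-22, depth limits what can be seen.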
